A study of Mus musculus with 6 samples.

Results

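The ERK feedback regulators examined here are 10 mouse genes: the dual-specificity phosphatase genes Dusp1, Dusp2, Dusp4, Dusp5 and Dusp6, the Sprouty genes Spry1, Spry2 and Spry4, and the SPRED genes Spred1 and Spred2. They were chosen by symbol from probe sets whose platform annotation names a single gene, and all 10 were found, on 11 probe sets, among 19938 genes tested. Transcript levels were measured on 6 Affymetrix arrays of the URE line, 3 labelled shHLX, from cells carrying a hairpin against the homeobox gene Hlx, and 3 labelled shControl, from cells carrying a hairpin against luciferase. Both groups carried the same lentiviral vector with a green fluorescent protein, were incubated with virus for 24 h with polybrene at 8 ug/ml, were sorted for the fluorescence, and were grown with haematopoietic cytokines. As background, URE cells come from a myeloid leukaemia of mice that lack an upstream regulatory element of Spi1, the PU.1 gene, so both groups share reduced PU.1, and the line stands for 1 leukaemia. Separate transductions are not stated in the labels, and the p-values below therefore cover the spread among these arrays, which may be technical.

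ERK is the last kinase of the cascade that runs from growth factor and cytokine receptors through RAS, RAF and MEK, and it drives proliferation and early gene expression in myeloid progenitors. Many genes that ERK switches on encode its own restraints. Dual-specificity phosphatases remove the activating phosphates from ERK and related kinases, Sprouty proteins interrupt signalling between receptors and RAF, and SPRED proteins bring the RAS-inactivating protein neurofibromin to the membrane. Their transcripts are often read as a record of recent ERK signalling, although other pathways also control them.

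The targeted gene was examined first. Hlx gave 10.08, 10.06 and 10.17 on the log2 scale on the arrays labelled shHLX, against 10.21, 10.12 and 10.20 on the shControl arrays. The groups overlapped, and the difference of -0.07 (95% confidence interval -0.19 to 0.04) passed neither limma (adjusted p = 0.479) nor a two-sided exact permutation test (p = 0.2, with 0.1 as the smallest possible for 3 arrays against 3). A knockdown of Hlx was thus not visible, and each direction below is that of the labels alone. Array medians lay between 7.02 and 7.10. The first principal component, with 59.4% of the variance, set all arrays labelled shHLX apart from the shControl arrays. The second principal component, with 18.1% of the variance, set shHLX 3 and shControl 1 apart from the other arrays. Of the line's myeloid markers, 10 of 10 lay above the median signal of all genes, and of these Cd33, Itgam and Lyz2 rose and Mpo fell. Also above it were 3 of 5 stromal markers and 1 each of the T cell, erythroid, mast cell and endothelial lists. A signal above the median alone therefore does not show that a gene is expressed. Of 7 lists of other cell types, only the endothelial one held a called gene, Cdh5 (-2.68), and the mean of its 5 markers was 6.18 to 6.22 on the arrays labelled shHLX and 6.75 to 6.81 on the shControl arrays. The other endothelial markers did not pass, namely Kdr (-0.11), Tek (-0.02), Tie1 (-0.19) and Emcn (0.10). The lower mean therefore rests mostly on Cdh5. The part of this difference in the results below was not tested.

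Dusp6 and Spry1 were higher on the arrays labelled shHLX, by 1.26-fold and 1.25-fold, and no feedback regulator was called lower. Of the 10 genes, 2 rose, 0 fell and 8 did not pass the test (limma, Benjamini-Hochberg adjusted p under 0.05 over all genes). At an unadjusted p under 0.05 there were 3, the third being Spry2, beside 3861 of all 19938 genes tested. Over all genes tested, 3.75% were called higher, 2.43% lower and 6.18% in either direction. A count of 0 lower among 10 is thus near the background. The groups did not overlap for 4 of the 10 genes (Dusp6, Spry1, Spry2 and Spred1), each higher on the arrays labelled shHLX, beside 26.2% of all genes without overlap in either direction. The median difference of the 10 genes was 0.04 on the log2 scale, against -0.01 for all genes. In these bulk samples a change in RNA per cell and a change in the share of cells that carry the RNA cannot be told apart.

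**Figure D1:**
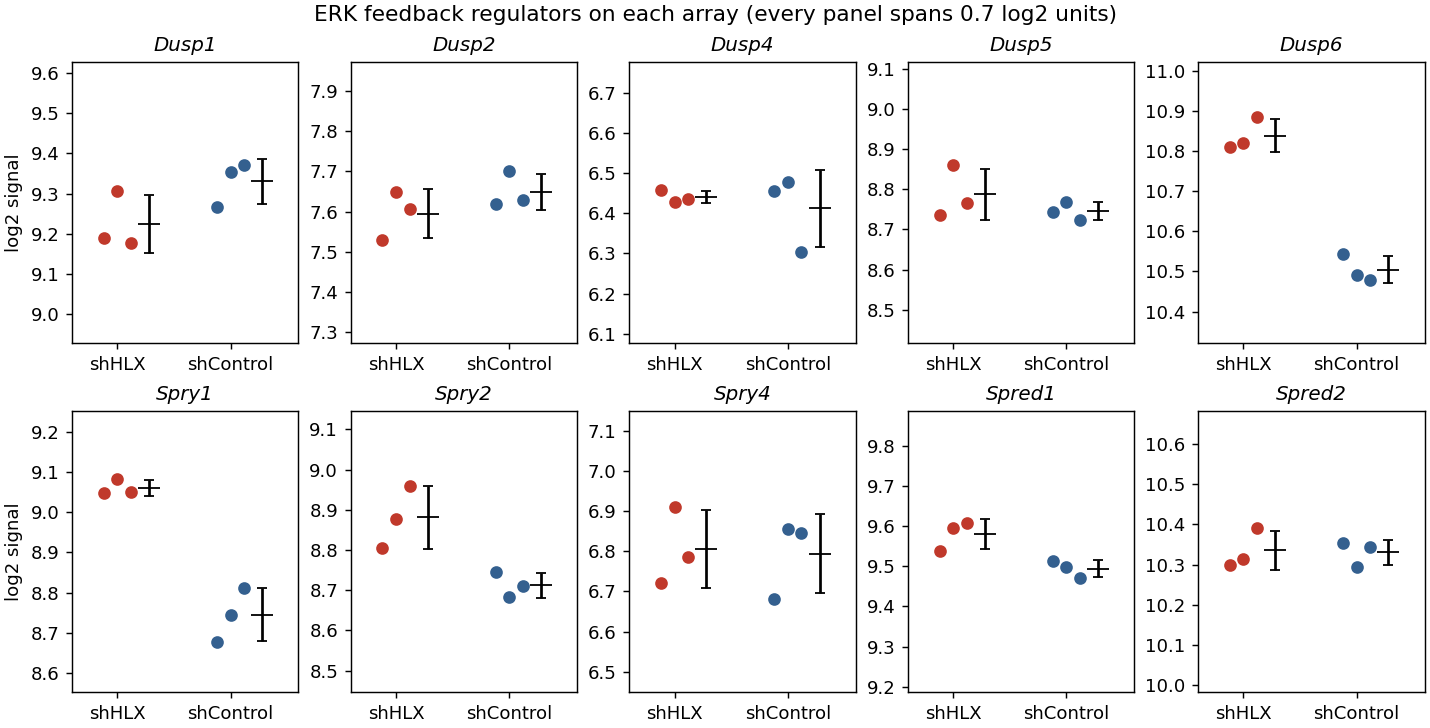
The log2 signal of each feedback regulator (y axis) on the arrays labelled shHLX and on the shControl arrays (x axis, 3 points each), with the mean and SD beside the points. Dusp6 and Spry1 stand clear of the shControl arrays on every array labelled shHLX, Spry2 and Spred1 also do so by smaller distances, and the other 6 genes overlap.

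Promoter windows are shown for both members that rose, for Dusp1, which had the most negative difference, and for Dusp3, a related phosphatase gene with a larger rise described further on. They are the 250 bases before the RefSeq start on the gene's own strand, in GRCm38.p6, at chr10:99262981-99263230 for Dusp6 (plus strand), chr3:37639697-37639946 for Spry1 (plus), chr17:26508473-26508722 for Dusp1 (minus) and chr11:101984792-101985041 for Dusp3 (minus). Capitals mark the ETS core GGAA, the cAMP response element TGACGTCA and the CCAAT box CCAAT, on either strand.
Dusp6: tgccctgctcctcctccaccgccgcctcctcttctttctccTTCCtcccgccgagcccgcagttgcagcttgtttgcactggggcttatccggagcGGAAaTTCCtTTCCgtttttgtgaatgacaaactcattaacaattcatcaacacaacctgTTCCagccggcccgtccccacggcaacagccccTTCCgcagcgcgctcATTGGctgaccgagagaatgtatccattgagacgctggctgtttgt
Spry1: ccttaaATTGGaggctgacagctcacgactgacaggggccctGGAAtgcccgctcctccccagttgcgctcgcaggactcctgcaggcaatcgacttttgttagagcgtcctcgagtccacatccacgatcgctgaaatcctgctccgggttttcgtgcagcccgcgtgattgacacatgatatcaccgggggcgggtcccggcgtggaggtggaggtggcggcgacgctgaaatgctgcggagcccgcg
Dusp1: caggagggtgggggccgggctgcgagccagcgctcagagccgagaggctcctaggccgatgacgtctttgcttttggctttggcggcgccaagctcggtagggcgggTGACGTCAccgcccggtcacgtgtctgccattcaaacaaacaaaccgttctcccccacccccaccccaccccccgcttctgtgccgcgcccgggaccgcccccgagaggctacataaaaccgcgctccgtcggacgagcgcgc
Dusp3: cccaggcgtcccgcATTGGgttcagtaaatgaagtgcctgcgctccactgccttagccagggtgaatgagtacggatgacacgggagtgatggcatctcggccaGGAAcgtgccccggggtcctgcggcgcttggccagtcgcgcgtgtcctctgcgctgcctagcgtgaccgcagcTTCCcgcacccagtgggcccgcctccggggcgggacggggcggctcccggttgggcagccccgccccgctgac
The marked matches did not overlap each other. Of the 10 members, 8 matched the RefSeq promoter table, and Dusp4 and Spry4 did not. The ETS core occurred 6 times before Dusp6, once before Spry1, 2 times before Dusp3 and not before Dusp1. It was present in 7 of the 8 windows and in 93.4% of all 32851 promoter windows of this length. CCAAT stood in 2 of the 8 windows, those of Dusp6 and Spry1, beside 33.8% of all windows. The count is thus not above that share, and a link between CCAAT and a rise was not tested. Among 10 related genes described further on, 8 had a window and 5 of these held CCAAT, namely Dusp3 and Dusp7, which rose, and Dusp8, Dusp10 and Dusp16, which did not pass the test. The cAMP response element was in the Dusp1 window alone among the 8, and in 1.55% of all windows. The AP-1 site TGANTCA (6.75% of all windows) and the homeobox core TAATTA (4.84%) were in 0 of the 8. These matches describe letters in the window and no binding was measured.

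Dusp6 encodes a cytoplasmic phosphatase that acts on ERK in preference to other MAP kinases. Its signal was 10.81, 10.82 and 10.88 on the arrays labelled shHLX, against 10.54, 10.49 and 10.48 on the shControl arrays. Every array labelled shHLX was above every shControl array, and the gap between the groups was wider than the range within either. The fold was 1.26, with a 95% confidence interval of 1.17 to 1.35 and a limma adjusted p of 0.004. It passed in all 16 alternatives, with a log2 difference between 0.31 and 0.35 and an adjusted p up to 0.0279.

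The nuclear phosphatases are the products of Dusp1, Dusp2, Dusp4 and Dusp5. Of these, Dusp5 is selective for ERK, while the Dusp1 product acts mainly on the stress kinases p38 and JNK and is induced by stress and by glucocorticoids. Dusp1 gave 9.19, 9.31 and 9.18 on the arrays labelled shHLX and 9.27, 9.35 and 9.37 on the shControl arrays, with one array labelled shHLX inside the control range. Its difference of -0.11 was the most negative of the 10 genes and did not pass (limma adjusted p = 0.341). Dusp5 gave 8.74, 8.86 and 8.77 on the arrays labelled shHLX and 8.74, 8.77 and 8.72 on the shControl arrays, and the groups overlapped (difference 0.04, limma adjusted p = 0.686).

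Dusp2, an immediate early phosphatase gene of activated blood cells, gave 7.53, 7.65 and 7.61 on the arrays labelled shHLX and 7.62, 7.70 and 7.63 on the shControl arrays. The groups overlapped (difference -0.05, limma adjusted p = 0.61). Dusp4, whose product acts on ERK and JNK, gave 6.46, 6.43 and 6.44 on the arrays labelled shHLX and 6.46, 6.48 and 6.30 on the shControl arrays. One control array was low and the other controls lay with the arrays labelled shHLX (difference 0.03, limma adjusted p = 0.829). The 95% confidence intervals of these 4 nuclear phosphatase genes reached from -0.23 to 0.16, so a change of the size seen for Dusp6 lay outside them. Dusp4 and Spry4 had mean signals below the median of all genes, and whether such signals lie above background is unknown, since no detection values were used here.

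Of the Sprouty genes, Spry1 rose, and Spry2 and Spry4 did not pass the test. Spry1 gave 9.05, 9.08 and 9.05 on the arrays labelled shHLX and 8.68, 8.75 and 8.81 on the shControl arrays. The arrays labelled shHLX were nearly identical and all above the more scattered controls (SD 0.019 and 0.066, n = 3 each). The fold was 1.25, with a 95% confidence interval of 1.15 to 1.35 and a limma adjusted p of 0.00739, and the rise passed in all 16 alternatives, with log2 differences between 0.28 and 0.35 and an adjusted p up to 0.047. That highest value was obtained without shHLX 3 and shControl 1 together, a setting chosen after seeing the data.

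Spry2, which encodes an antagonist of receptor tyrosine kinase signalling, gave 8.80, 8.88 and 8.96 on the arrays labelled shHLX and 8.74, 8.68 and 8.71 on the shControl arrays. The groups did not overlap, but the 1.12-fold difference (95% confidence interval 1.03 to 1.22) did not pass over all genes (limma adjusted p = 0.121). It passed only when genes below the median signal were left out of the adjustment (limma adjusted p = 0.0317). Spry4 gave 6.72, 6.91 and 6.78 on the arrays labelled shHLX and 6.68, 6.86 and 6.84 on the shControl arrays. The values were interleaved, and the difference of 0.01 did not pass (95% confidence interval -0.15 to 0.17, limma adjusted p = 0.948).

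Neither SPRED gene passed the test. Spred1, which is mutated in a human RAS pathway disorder, gave 9.54, 9.60 and 9.61 on the arrays labelled shHLX and 9.51, 9.50 and 9.47 on the shControl arrays. The groups just failed to touch, and the difference of 0.09 (95% confidence interval -0.01 to 0.19) did not pass (limma adjusted p = 0.326). Spred2 had 2 probe sets. The brighter one gave 10.30, 10.32 and 10.39 on the arrays labelled shHLX and 10.35, 10.29 and 10.34 on the shControl arrays, and the groups overlapped (difference 0.005, 95% confidence interval -0.10 to 0.11, limma adjusted p = 0.968). The other gave 8.71, 8.82 and 8.82 on the arrays labelled shHLX and 8.97, 8.82 and 8.93 on the shControl arrays, a difference of -0.13 that did not pass when all probe sets were tested (limma adjusted p = 0.284). The 2 probe sets therefore disagreed in sign, and neither was called.

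**Figure D2:**
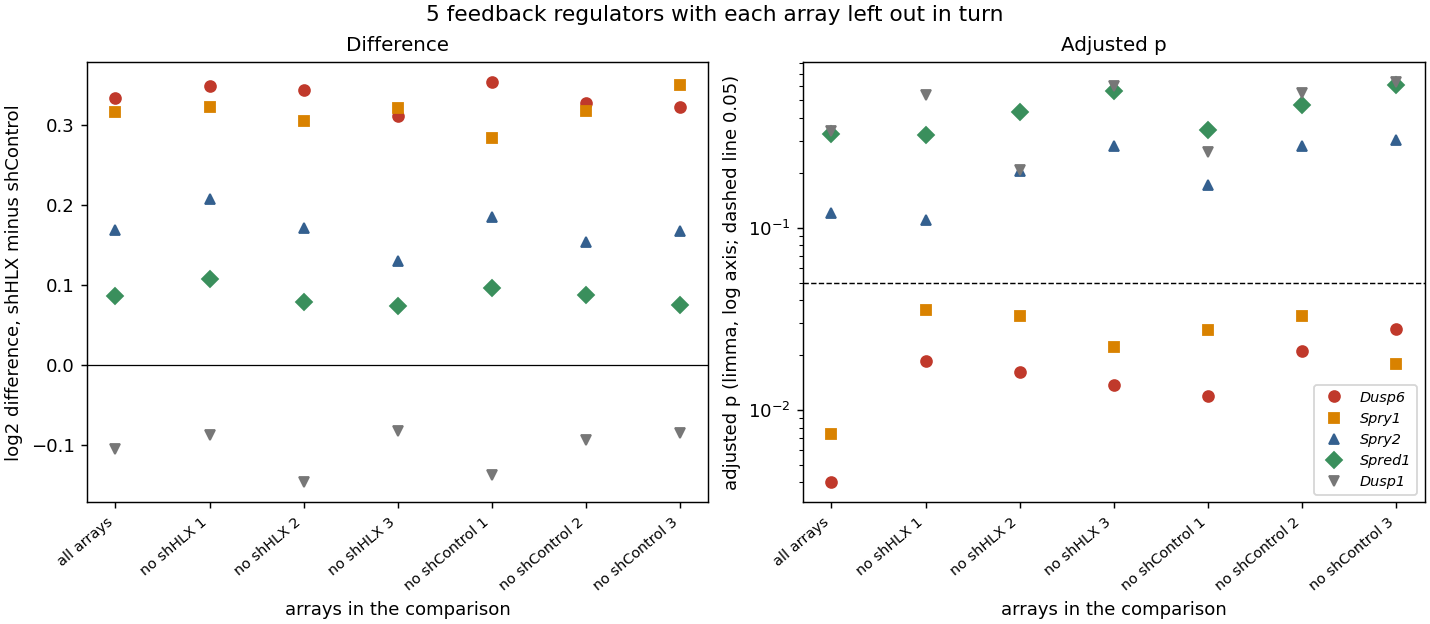
Log2 difference (left) and limma adjusted p on a log axis (right) of 5 feedback regulators with all arrays and with each array left out in turn (x axis). Dusp6 (0.31 to 0.35) and Spry1 (0.28 to 0.35) stay below the dashed line at 0.05 each time, while Spry2, Spred1 and Dusp1 stay above it.

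By the distance between centred profiles over the 6 arrays, the gene closest to Dusp6 was Cyb5d1 (distance 0.032 on the log2 scale, difference 0.33, limma adjusted p = 0.00348). The gene closest to Spry1 was Sesn3 (distance 0.055, difference 0.33, limma adjusted p = 0.012). Both were picked for closeness to a called gene on these arrays, so their differences and adjusted p follow from that choice.

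Among 10 relatives of these genes, chosen as other dual-specificity phosphatase, Sprouty and SPRED genes, 2 rose and 0 fell. Over all genes 3.75% were called higher and 2.43% lower, so a count of 0 lower among 10 is near the background. Dusp3 encodes a small atypical phosphatase, also called VHR, that can dephosphorylate ERK and JNK. Its signal was 8.044, 8.030 and 8.121 on the arrays labelled shHLX and 7.173, 6.996 and 7.010 on the shControl arrays. The groups were far apart, with a fold of 2.01, a 95% confidence interval of 1.82 to 2.21 and a limma adjusted p of 6.52e-05, and the rise passed in all 16 alternatives.

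Dusp7 encodes a cytoplasmic phosphatase of the same subgroup as the Dusp6 product. It gave 11.55, 11.62 and 11.56 on the arrays labelled shHLX and 11.27, 11.36 and 11.32 on the shControl arrays, with no overlap (1.2-fold, 95% confidence interval 1.11 to 1.29, limma adjusted p = 0.0145). This call was lost without shHLX 1, shHLX 2, shControl 1 or shControl 3 (limma adjusted p 0.0505, 0.0555, 0.0561 and 0.0711), which leaves 1 called relative, Dusp3. The other 8 relatives did not pass. Dusp14 (0.21) and Dusp16 (0.21) had positive log2 differences, Dusp9 (-0.20) and Dusp10 (-0.16) negative ones, and these 4 were each under an unadjusted p of 0.05. With Dusp3 and Dusp7, 6 of the 10 relatives were under that unadjusted threshold, beside 3861 of all 19938 genes tested. Dusp9 is, with Dusp6 and Dusp7, the remaining gene of the cytoplasmic ERK phosphatases. The median of the 10 relatives was -0.08, against -0.01 for all genes.

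**Figure D3:**
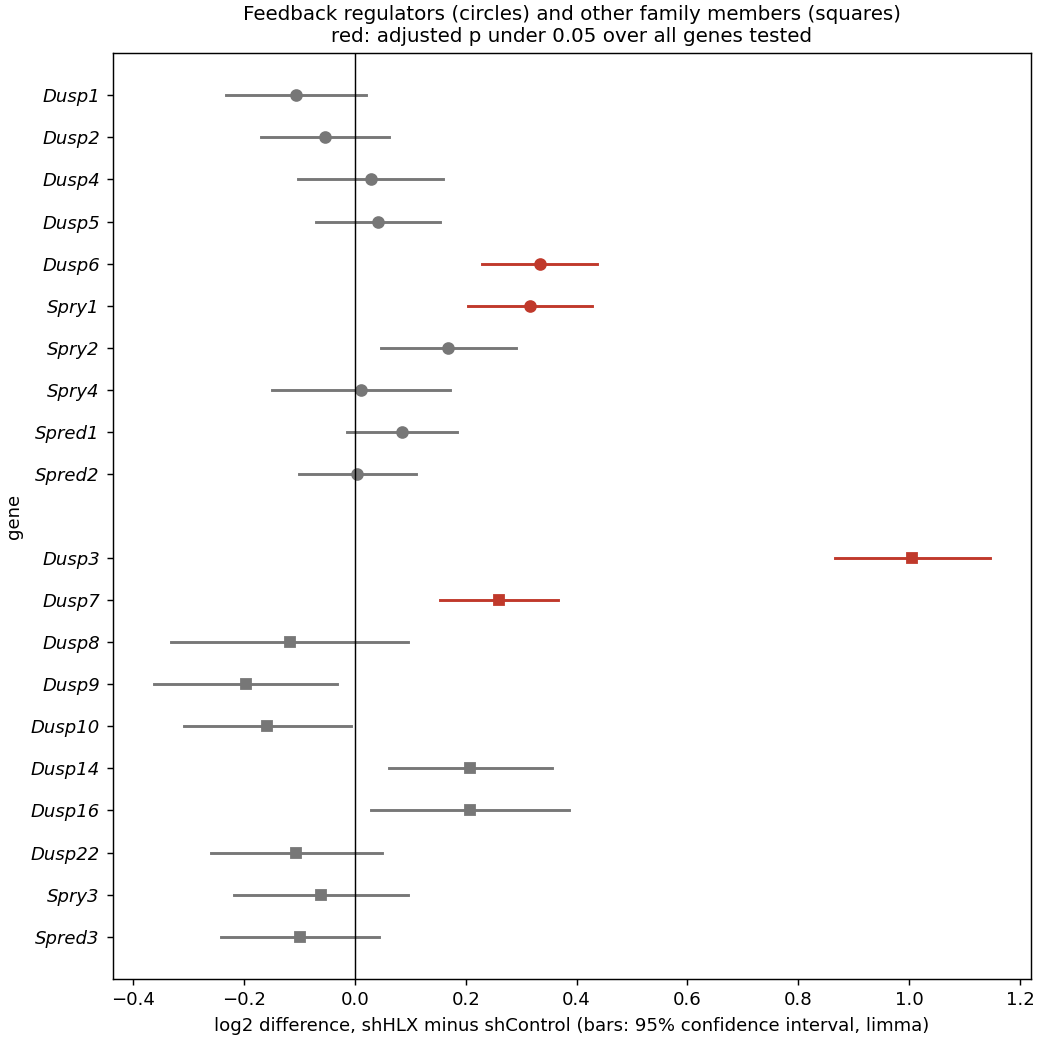
Log2 difference, shHLX minus shControl (x axis), with the 95% confidence interval from limma, of the 10 feedback regulators (circles) and 10 relatives (squares). Genes past the threshold are red: Dusp6, Spry1, Dusp3 and Dusp7 lie to the right of 0 and Dusp3 (1.01) lies farthest.

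In the cascade that these proteins restrain, calls were made in both directions. Of 28 listed genes from adaptor to effector kinase, 21 were measured, and the other 7 were not analysed here, among them both ERK genes. Of the 21, 1 rose, 2 fell and 18 did not pass (median 0.04), beside 6.18% of all genes called in either direction. Gab1, a docking adaptor below receptor kinases, fell by 0.38 on the log2 scale (limma adjusted p = 0.00348). Ksr1, the scaffold that holds RAF, MEK and ERK together, fell by 0.33 (limma adjusted p = 0.0151). Mknk1, which encodes an ERK-activated kinase that phosphorylates a translation factor, rose 1.15-fold (limma adjusted p = 0.0293). The MEK genes Map2k1 (0.08) and Map2k2 (0.03) and the RAF genes Araf (0.09) and Braf (0.07) did not pass. Ksr1 was lost without shControl 2 (limma adjusted p = 0.0552) or shControl 3 (0.0721), and Mknk1 without any 1 array (0.0661 to 0.119), which left 1 called gene without either of those controls.

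Of 22 other restraints on RAS and ERK that were measured, 4 fell, 0 rose and 18 did not pass (median -0.02). Over all genes 2.43% were called lower and 3.75% higher, so a count of 0 higher among 22 is near the background. Rasal3 (-0.61, limma adjusted p = 0.000409) and Rasa2 (-0.40, limma adjusted p = 0.00486) encode proteins that speed the inactivation of RAS. Dok2 (-0.49, limma adjusted p = 0.000946) encodes an adaptor that recruits such a protein in myeloid cells. Ptpn6 (-0.24, limma adjusted p = 0.0109) encodes the tyrosine phosphatase SHP-1, and its call was lost without shControl 3 (limma adjusted p = 0.065). Rasal3, Rasa2 and Dok2 passed in all 16 alternatives.

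Genes that ERK induces changed in both directions. Of 30 measured, 3 rose, 3 fell and 24 did not pass (median -0.04), beside 6.18% of all genes called in either direction. Etv1, an ETS factor gene, rose 2.03-fold on its brightest probe set (limma adjusted p = 0.000262). For the mean of its probe sets the log2 difference was smaller, 0.76 against 1.02 (limma adjusted p = 0.000694). The mean signal of the brightest Etv1 probe set lay below the median of all genes, and whether it lies above background is unknown. The AP-1 gene Fosl2 rose 1.55-fold (limma adjusted p = 0.000337) and the antiproliferative gene Btg2 rose 1.24-fold (limma adjusted p = 0.00764). Egr1, an immediate early gene, fell by 1.10 on the log2 scale (limma adjusted p = 1.37e-05). Etv5 (-0.41, limma adjusted p = 0.00209) is an ETS factor gene often measured together with Dusp6 and the Sprouty genes as a readout of ERK, and it fell on the arrays on which Dusp6 and Spry1 were higher. Fosb (-0.40, limma adjusted p = 0.0128) also fell, and its call was lost without shControl 3 (limma adjusted p = 0.0663). Other genes used as such readouts did not pass, with log2 differences of -0.19 for Etv4, 0.10 for Phlda1, -0.11 for Ccnd1 and -0.20 for Fos.

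Of 16 receptor genes above the cascade, 3 rose, 2 fell and 11 did not pass (median 0.07). Over all genes 6.18% were called in either direction, and the median was -0.01. Kit, the receptor for stem cell factor, a cytokine supplied during infection, fell by 0.73 on the log2 scale (limma adjusted p = 6.37e-05). Csf2ra, a subunit of the GM-CSF receptor, fell by 0.42 (limma adjusted p = 0.000654). Flt3, a receptor kinase of progenitors, rose 1.56-fold (limma adjusted p = 0.00102), Met, the receptor of hepatocyte growth factor, rose 1.42-fold (limma adjusted p = 0.00541) and Tlr4, the endotoxin receptor, rose 1.38-fold (limma adjusted p = 0.00322). Met was lost in a test without variance moderation (adjusted p = 0.0698). Flt3 and Met had mean signals below the median of all genes, and whether such signals lie above background is unknown.

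**Figure D4:**
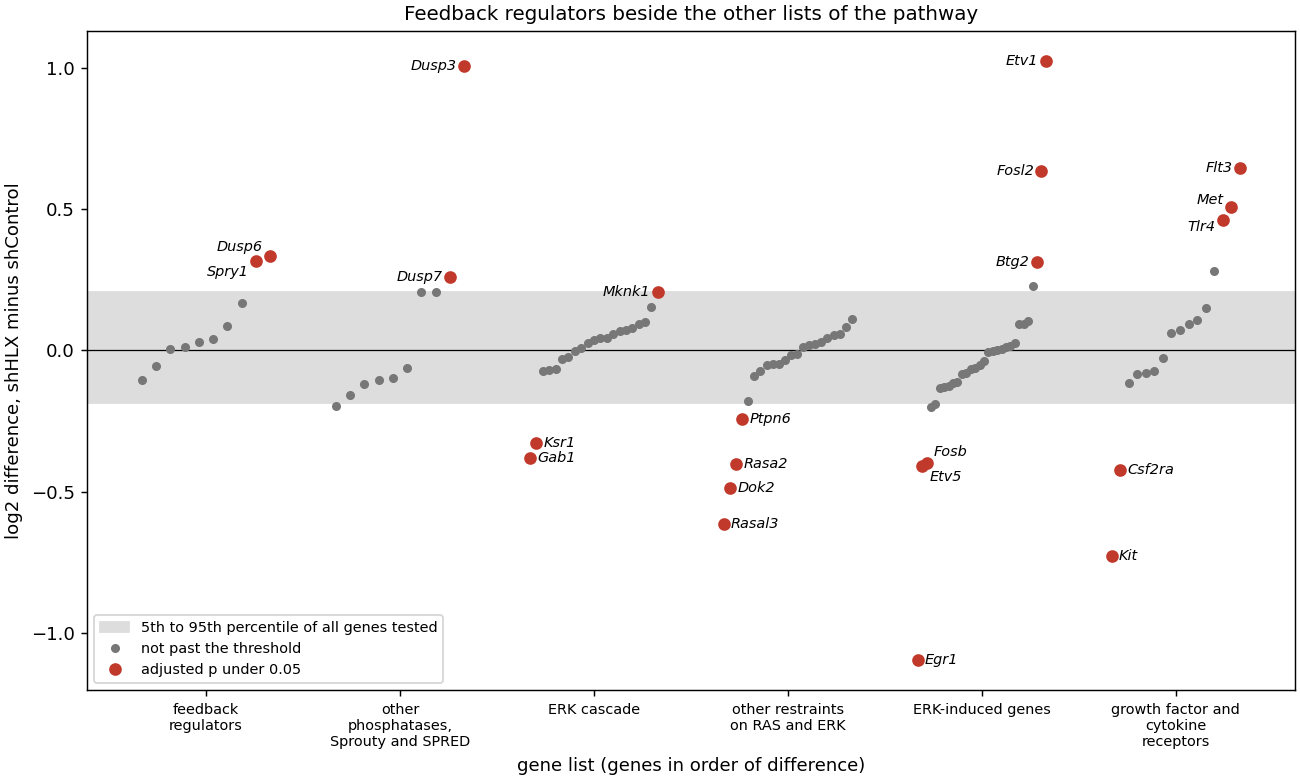
Log2 difference, shHLX minus shControl (y axis), of every measured gene in the 6 lists (x axis), with genes past the threshold in red and named and the 5th to 95th percentile of all genes (-0.19 to 0.21) in grey. The feedback regulators and their relatives have red points above 0, the 4 red points of the other restraints lie below 0, and the ERK-induced and receptor lists have both.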

How the data were processed

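The authors deposited log2 signals, 1 column per array, made with RMA and Affymetrix Power Tools 1.178 per the submitters' processing notes. RMA corrects background, equalises the distributions of arrays and summarises probes, so folds of dim genes tend to be understated. Per the labels' protocols, 10 ng of RNA was amplified before labelling. How probe sets were defined is not stated.

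Of 35556 probe sets, the 21789 with 1 annotated symbol were used. Each gene was represented by its brightest probe set on average, giving 19938 genes, and none was dropped for dim signal. The comparison used limma 3.58.1 (R 4.3.3, two-sided, no covariates), adjusted over all genes at 0.05. The code was tested on simulated data. Alternatives covered normalization, filters, variance model, probe sets, a replicate block and left-out arrays. All members were named, with up to 6 called genes per other list. Genes of members' relatives and readouts outside that rule were chosen after their values were seen. Members and lists were chosen with earlier results of these data known.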

Additional observations from a re-analysis of the deposited data

How the results depend on the processing

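The count of feedback regulators called was 2 higher and 0 lower under all 16 alternatives but one, the filter at the median signal, where Spry2 made it 3 higher. All genes called numbered 1233, 2064 above the median signal, 2261 with an intensity trend, 741 without shHLX 3 and shControl 1 together (chosen after seeing the data), and 698 to 901 with 1 array left out. Called relatives numbered 1 without shHLX 3 and shControl 1 together. With 1 array left out, called relatives and called cascade genes each numbered 1 to 2. Replicate numbers did not pair the arrays: same-numbered deviations correlated at -0.17, 0.13 and -0.15, and with the replicate block 800 genes were called, Dusp6 and Spry1 among them, while Mknk1 (adjusted p = 0.106) and Ptpn6 (0.059) were not. Signs turned for members near 0. Spred2 was -0.023 after a second quantile normalization, -0.060 for the mean of its probe sets, -0.13 for its other probe set, -0.012 without shHLX 3 and shControl 1 together, and -0.023 to 0.022 with 1 array left out. Spry4 was -0.035 without those arrays together and -0.045 to 0.054 with 1 left out, and Dusp4 -0.026 to 0.061. Without variance moderation Ksr1 (0.0838) and Fosb (0.0943) were not called, and without shHLX 3 and shControl 1 together neither were Dusp7 (0.0814), Mknk1 (0.118), Ptpn6 (0.0771), Btg2 (0.0502) or Fosb (0.0715). The cause of these changes was not tested. The number of arrays limits the precision.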
